A study of Equus caballus with 26 samples.

Results

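Of the 24415 gene names on an equine expression array, 10 genes that act on free haemoglobin and on the iron it carries were followed in whole blood of endurance horses. They were chosen by function, with earlier results of these data already known. CD163 and HP capture haemoglobin, HMOX1, BLVRA and BLVRB break down haem, and SLC40A1 exports iron. FTH1 and FTL store iron, and SLC11A1 and TFRC bring it in across membranes. All 10 had at least 1 probe. The blood came from Arabian and half-breed Arabian horses recruited at 3 endurance rides of 160 km, whose age is given as 10 ± 2 years (SEM) for all recruited animals. Jugular blood was drawn into RNA-stabilising tubes at rest before the ride (T0) or at its end (T1), and its RNA was hybridised to 1-colour arrays. In the experimental set, 3 geldings (horses 2, 32 and 41) were sampled at both times. In the validation set each horse gave 1 array, with 7 horses at T0 (3 females and 4 geldings) and 13 other horses at T1 (3 females and 10 geldings), so that no validation horse was its own control. By the study's methods every horse sampled at T1 completed the ride, while most validation horses sampled at T0 were later stopped at a veterinary check. That record covers the paper's own sets, which hold more horses than the 3, 7 and 13 here. Finishing status moved with time in the paper's validation set and may do so here. The part of finishing status in the results was not tested. The ride is the only treatment given for any group.

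When red cells rupture, free haemoglobin is bound by haptoglobin in the plasma and the complex is taken up by monocytes and macrophages through the receptor CD163. Haem oxygenase 1 then opens the haem ring and releases iron, carbon monoxide and biliverdin, which the biliverdin reductases turn into bilirubin. The iron is stored in ferritin, a shell of heavy (FTH1) and light (FTL) chains, or leaves the cell through ferroportin, the product of SLC40A1. Haptoglobin is a plasma protein made mainly in the liver, but maturing neutrophils also make it and keep it in their granules.

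The probes that carry the largest changes are shown so that the transcript each of them reads can be seen. Probes are 60 bases long, and positions are those of the array annotation, whose build is named EquCab1 in the file headers. CD163 lies near CD163L1, a receptor gene of the same family, and the brightest probes of the pair are printed with their longest shared run, 12 bases, in capitals.
CD163 (chr6:35123696-35123755, minus strand): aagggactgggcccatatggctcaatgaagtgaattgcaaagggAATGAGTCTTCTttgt
CD163L1 (chr6:35058441-35058500, minus strand): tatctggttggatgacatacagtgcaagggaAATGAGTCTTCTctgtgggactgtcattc
HP (chr3:21789421-21789480, minus strand): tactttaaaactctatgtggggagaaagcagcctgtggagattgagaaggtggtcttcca
HMOX1 (chr28:32851501-32852382, plus strand): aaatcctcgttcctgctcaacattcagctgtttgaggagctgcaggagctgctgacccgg
With the shared run aligned, 34 of 47 bases of the CD163 and CD163L1 probes were equal. The span annotated for the HMOX1 probe is longer than the probe. The array describes the locus read by the HP probe as an uncharacterised protein, and its name was taken from the study's annotation.

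Levels below are log2 signals minus the 75th percentile of the same array, so a level of 0 is the 75th percentile, and they are never set against those of another gene. Fold changes are T1 over T0, with 95% confidence intervals that are not adjusted for the number of genes. In the experimental set, 9 of the 10 genes were bright enough to test and 4 of them rose, CD163, HP, HMOX1 and BLVRA. Limma called 10.1% of the 17490 gene names tested there, 6.16% as higher and 3.95% as lower. The 1768 gene names called became 239, 694 and 3169 without horse 2, 32 and 41 in turn. With no filter on dim probes they became 46. The 4 genes called became 2, 3 and 5 without these horses in turn, and 2 with no filter. Over all gene names 1077 were called higher and 691 lower, but 1008 and 1024 after quantile normalisation, 1150 and 1235 after background correction by normexp, and 1063 and 1174 from the deposited values. In the validation set 7 of 9 rose, these 4 together with SLC40A1, FTL and SLC11A1, where limma called 44.2% of 17404 gene names, 20.3% as higher and 23.9% as lower. The 4 genes thus rose in both sets, as did 5.92% of the 17141 gene names tested in both. None of the 9 fell in either set. The median log2 fold change of the 9 genes was 0.98 in the experimental and 1.0 in the validation set, against 0.03 and -0.07 over all gene names tested. As the genes were chosen with earlier results of these data known, these shares and medians are only a description. On the experimental arrays, every T1 level lay above every T0 level for 8 of the 9 genes, BLVRB being the exception, and the same held for 17.8% of gene names. With the 20 validation arrays it held for CD163 alone among the 9, and for 1.45% of gene names. With scan day as a term in the validation fit the count of genes that rose was also 7. The 8 genes whose experimental levels did not overlap had to be higher at T1 within any scan day, so scan days add nothing on their direction. On the 2 scan days that held both times of the experimental set, from different horses, BLVRB was higher at T1 on 1. In RNA from whole blood, a change in the number of cells of a type and a change of RNA per cell cannot be told apart.

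**Figure D1:**
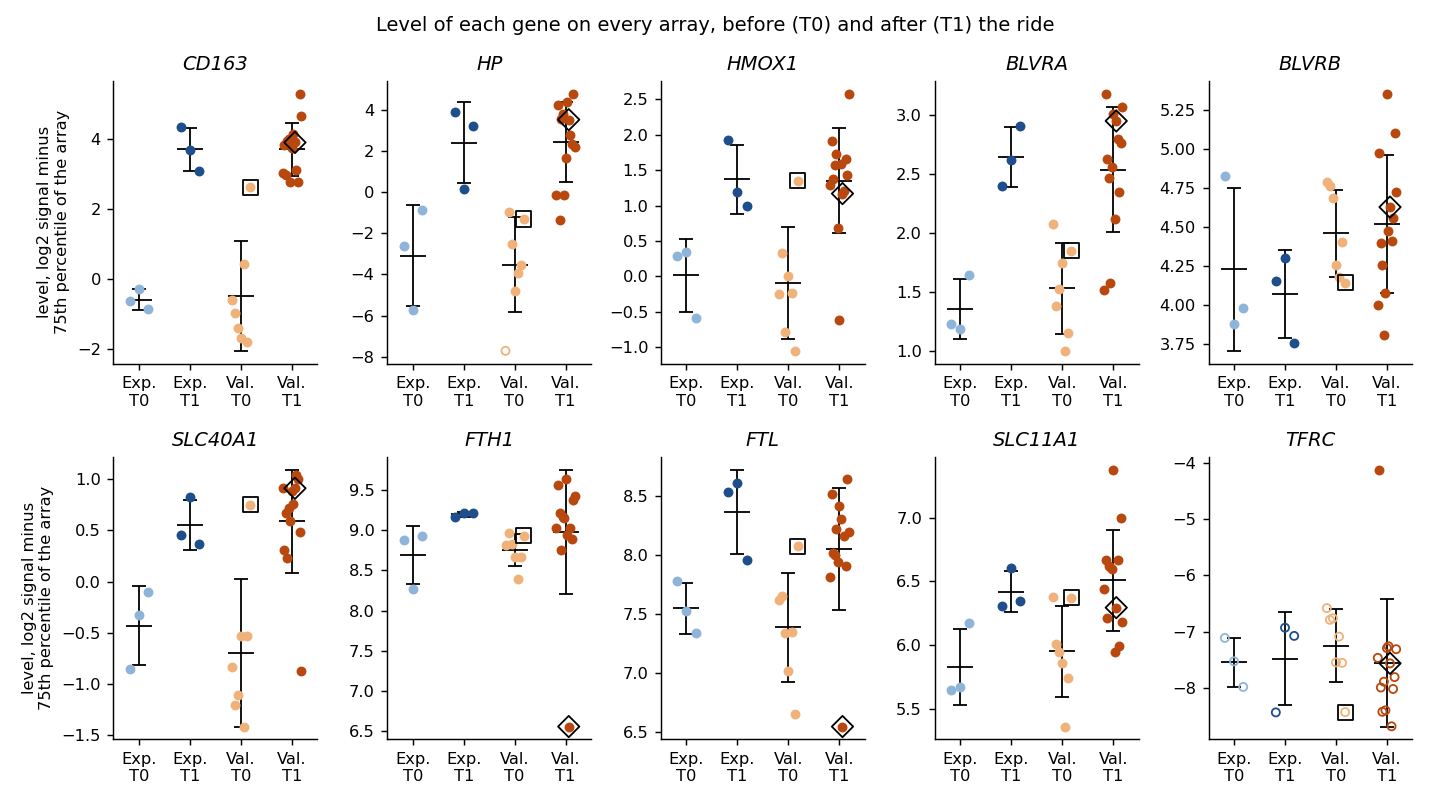
Level of each of the 10 genes (log2 signal minus the 75th percentile of the array, a separate scale for each gene) on the 3 + 3 experimental and 7 + 13 validation arrays; points are arrays, open points were not well above background, bars are mean ± SD. The square marks the T0 array of horse 47 and the diamond the T1 array of horse 34. CD163 at T1 lies above every T0 array in both sets, and TFRC was above background on 1 array.

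**Figure D2:**
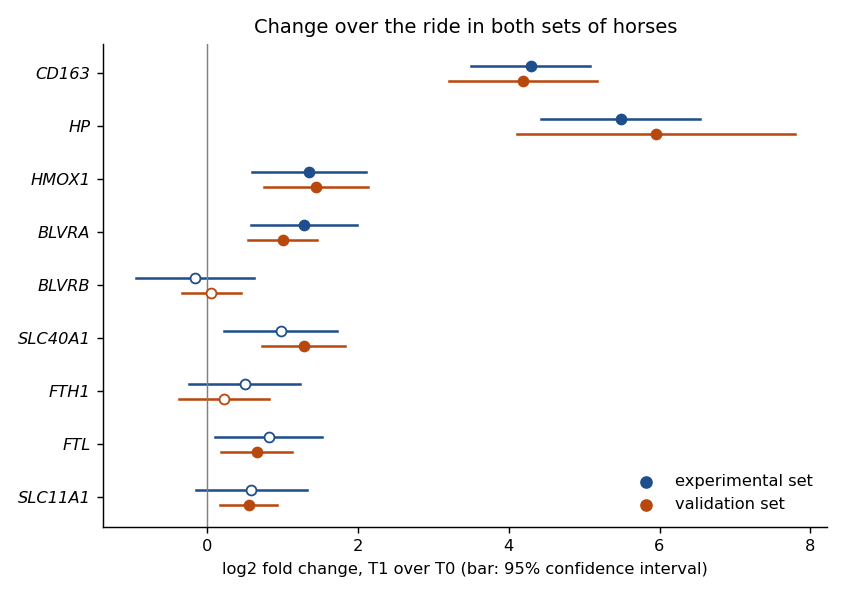
Log2 fold change of T1 over T0 for the 9 genes tested in the experimental (blue) and the validation set (orange); bars are 95% confidence intervals, and filled points have an adjusted p under 0.05. The intervals of HP and CD163 lie above those of the other 7 genes in both sets, and those of BLVRB and FTH1 include 0.

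Among the validation arrays, 2 stood apart. On the array labelled T0 of horse 47, CD163, HMOX1, SLC40A1 and FTL, 4 of the 9 genes, had their highest level among the 7 T0 horses. BLVRB had its lowest there. The share of all gene names with their highest T0 level on this array was not computed. The mean of this array over 6 neutrophil markers was 4.34, against 2.22 to 2.71 on the other 6 T0 arrays and 3.95 to 4.99 at T1. Its mean over 7 T cell markers was 0.08, against 0.65 to 1.45 and -1.12 to 0.33. Horse 34 at T1 had an array read in a single scanner pass, where all others had 2. It held 431 saturated spots, among them the spots of FTH1 and FTL, and no other array had any. Values without these arrays are given where they were computed.

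CD163, the scavenger receptor for the haptoglobin and haemoglobin complex, stood at -0.63, -0.28 and -0.86 at rest in horses 2, 32 and 41. After the ride the same horses had 4.33, 3.68 and 3.1. Each of the 3 thus rose, horse 2 by 4.97 and horses 32 and 41 by 3.96 each on the log2 scale. The fold change was 19.6 (11.4 to 33.9, n = 3 horses, limma adjusted p = 0.00112). Validation horses at T0 ranged from -1.79 to 2.62 with a median of -0.97, and those at T1 from 2.78 to 5.29 with a median of 3.83. The groups did not overlap, although the highest T0 level, that of horse 47, came close to the lowest T1 level. The other 6 T0 horses were all at or below 0.43. CD163 was 18.3-fold higher at T1 (9.23 to 36.1, n = 7 and 13, limma adjusted p = 3.33e-06). Its log2 difference was 4.19, and 4.71 without horse 47.

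A second CD163 probe, which shares 40 bases with the first, gave nearly the same picture. Its mean went from -0.70 ± 0.33 (SD, n = 3) to 3.62 ± 0.66 (n = 3) in the experimental set and from -0.53 ± 1.52 (n = 7) to 3.65 ± 0.80 (n = 13) in the validation set. CD163L1, on its own probe, went from -3.87 ± 0.75 (n = 7) to -2.80 ± 0.60 (n = 13). The log2 difference of CD163L1 was 1.07 (SE 0.29, limma adjusted p = 0.00489) in the validation set and 1.03 (SE 0.36, adjusted p = 0.0986) in the experimental set. As the validation groups did not overlap for CD163, a higher level at T1 within scan days and slides was fixed in advance. Within the 5 scan days that held both times of the validation set the difference was 1.95 to 5.28. Each of these days had a single array at T0, at T1 or at both. The 3 slides with both times gave differences of 0.16 to 4.47, and the smallest was from the slide that held horse 47.

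HP, haptoglobin, had the largest fold change of the 9 genes in both sets. At rest its levels in horses 2, 32 and 41 were -2.64, -5.73 and -0.88, and at the finish 3.86, 0.16 and 3.18. These horses differed widely at each time, yet all 3 rose, by 6.5, 5.89 and 4.06 on the log2 scale. The fold change was 44.7 (21.5 to 93.2, limma adjusted p = 0.00114). The log2 difference behind it was 5.48, and it was 4.04 with normexp, 4.18 from the deposited values and 6.19 without horse 41. Validation T0 arrays spanned -7.71 to -0.94 with a median of -3.55, and the lowest of them, horse 13, was not well above background, so that 6 of 7 T0 arrays measured it. At T1 the range was -1.38 to 4.76 with a median of 2.76. Of the 13 T1 horses, 12 lay above the highest T0 horse. HP was 61.8-fold higher at T1 (17.3 to 221, limma adjusted p = 3.14e-05), with horse 13 at its dim value. The log2 difference was 5.95, and it was 5.26 without horse 13 (adjusted p = 9.12e-05), 4.93 with scan day as a term, 4.34 from the deposited values and 4.19 with normexp. The size of the change thus depended on how the arrays were processed, and its call did not under these settings. All 5 scan days and all 3 slides with both times had a higher mean at T1, by 0.99 to 7.13 and by 1.17 to 7.13 without horse 13.

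Among the 13 validation horses at T1, CD163 was set against the 8 other tested genes. For HP, Pearson's r was 0.694 (permutation p = 0.00822, adjusted over these 8 relations 0.0658) and Spearman's rho 0.736 (permutation p = 0.0052, adjusted 0.0416), so that only the rank correlation passed the adjustment. Without horses 55 and 19, the farthest from the CD163 median, r was 0.573. Without horse 34, r was 0.693 (permutation p = 0.0128, adjusted 0.0511) and rho was 0.734 and no longer passed (permutation p = 0.00846, adjusted 0.0515). Within scan days, over the 9 arrays of the 3 days with more than 1 of them, r was 0.63 and did not pass (exact permutation p = 0.184, adjusted 0.736). The relation of CD163 and HP was therefore not shown within days. SLC40A1 had an r of -0.526 (permutation p = 0.0649, adjusted 0.259), and -0.691 without horses 55 and 19, while within days it was -0.152 (exact permutation p = 0.868). FTL had a rho of 0.56 (permutation p = 0.0488, adjusted 0.195) with the saturated spot of horse 34 ranked at its measured value, which is only a lower bound. Without that horse FTL had an r of 0.75 (permutation p = 0.00503, adjusted 0.0402) and a rho of 0.706 (permutation p = 0.0129, adjusted 0.0515). Within days, with horse 34, FTL had an r of -0.194 (exact permutation p = 0.753). That value takes the saturated spot as an exact level, so neither its sign nor its size can be read. No within-day value without horse 34 was computed. Which gene had the largest r with CD163 thus depended on the horses used, as it was HP with all 13, FTL without horse 34 and SLC40A1, with a negative sign, without horses 55 and 19. No other gene reached an unadjusted p of 0.05 by any of these measures. The values without horse 34 and within days were computed after the data had been seen.

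**Figure D3:**
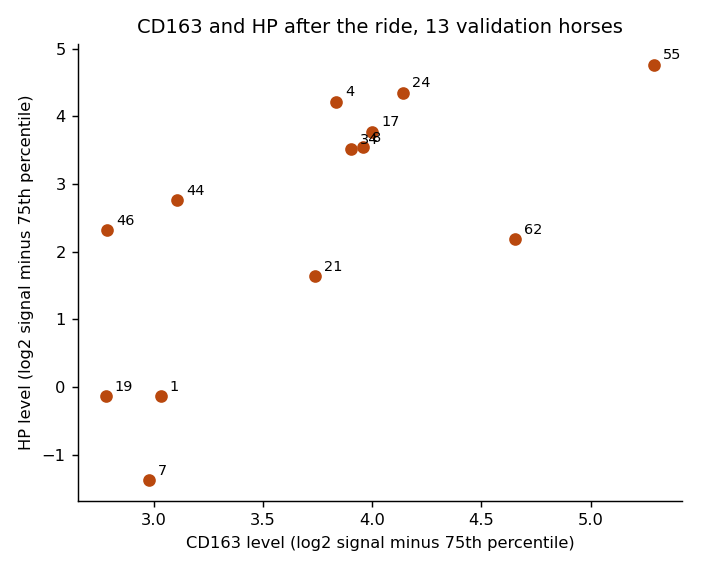
Level of HP against that of CD163 (both log2 signal minus the 75th percentile of the array) on the T1 arrays of the 13 validation horses; each point is a horse, labelled with its number. Horse 55 has the highest level of both genes, and Spearman's rho is 0.736.

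Over all 26 arrays, with each of the 4 groups centred on its mean, the gene names with a symbol that followed CD163 most closely were WFS1 (r = 0.862), TREM1 (0.842), GLCCI1 (0.838), CPNE3 (0.833) and SMAP2 (0.833). They ranked between 1 and 9 of 17773 gene names, and between 68 and 789 without the T0 array of horse 47, where their r was 0.642 to 0.784. WFS1 encodes a protein of the endoplasmic reticulum membrane and TREM1 a receptor of neutrophils and monocytes that amplifies inflammation. GLCCI1 takes its name from its induction by glucocorticoids. Among the genes followed here, HMOX1 had an r with CD163 of 0.549, FTL of 0.492 and HP of 0.378. They ranked 1030, 1447 and 2488 of the 17773 gene names. The FTL value includes the saturated spot of horse 34, a lower bound, so its place in this order is not known. Among the T1 validation horses alone, the r of FTL was 0.289 with horse 34 and 0.75 without it. Without horse 47 HMOX1, FTL and HP had 0.353, 0.38 and 0.299 (ranks 3282, 3067 and 3702), and SLC40A1 went from 0.134 to -0.525. The order of likeness thus rested in part on that array, and no value over all groups without horse 34 was computed. These values are a description, since the arrays share scan days and slides.

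HMOX1, haem oxygenase 1, stood at 0.28, 0.34 and -0.58 at rest in horses 2, 32 and 41 and at 1.93, 1.19 and 0.99 after the ride. Horse 32 rose least, by 0.84, and the others by 1.65 and 1.58. The fold change was 2.56 (1.52 to 4.31, limma adjusted p = 0.0388), and the call was lost without horse 2 (adjusted p = 0.159), without the filter on dim probes (0.164), without the horse as a block (0.055), and with all 26 arrays in 1 fit (0.103). Validation T0 levels ranged from -1.05 to 1.35 with a median of -0.24, and T1 levels from -0.61 to 2.58 with a median of 1.43. The ranges overlapped, and 8 of 13 T1 horses were above the highest T0 horse. That highest T0 level was again horse 47, and 12 of 13 T1 horses were above the other 6. HMOX1 was 2.72-fold higher at T1 (1.69 to 4.39, limma adjusted p = 0.00147). Within scan days it was higher at T1 in 3 of 5, with differences from -0.38 to 2.60, and within slides in 2 of 3.

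BLVRA and BLVRB encode enzymes that both reduce biliverdin, and BLVRA alone passed the threshold. BLVRA was at 1.23, 1.19 and 1.65 in horses 2, 32 and 41 at T0 and at 2.40, 2.63 and 2.91 at T1. Each horse rose by between 1.17 and 1.43 on the log2 scale. The fold change was 2.44 (1.5 to 3.97, limma adjusted p = 0.0372), and the call was lost without horse 2 (adjusted p = 0.122), without horse 32 (0.116) and without the filter on dim probes (0.161). Validation levels ran from 1.01 to 2.08 at T0 (median 1.53) and from 1.52 to 3.18 at T1 (median 2.63), and 11 of 13 T1 horses were above every T0 horse. BLVRA was 2.01-fold higher at T1 (1.46 to 2.76, limma adjusted p = 0.00108), and higher within all 5 scan days and all 3 slides.

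BLVRB, also named flavin reductase, went from 4.83 to 4.15 in horse 2, from 3.88 to 4.30 in horse 32 and from 3.98 to 3.76 in horse 41. Only horse 32 had a higher value at T1. The ratio of T1 to T0 was 0.896 (0.522 to 1.54, limma adjusted p = 0.787). The log2 difference of -0.16 was -0.43 with normexp, -0.50 after quantile normalisation and -0.40 from the deposited values. None of these passed the threshold (limma adjusted p = 0.126, 0.274 and 0.14). The 7 validation horses at T0 had levels of 4.14 to 4.79 (median 4.4) and the 13 at T1 had 3.81 to 5.35 (median 4.47). The T1 horses thus reached both below and above the T0 horses. The ratio was 1.04 (0.797 to 1.36, limma adjusted p = 0.819), and the sign of the difference turned under 3 other scalings of the arrays. Whether BLVRA and BLVRB differed in their change was not tested.

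SLC40A1, the only known exporter of iron from animal cells, was at -0.86, -0.33 and -0.10 in horses 2, 32 and 41 at rest and at 0.45, 0.83 and 0.37 after the ride. All 3 were higher at T1, horse 41 by 0.47 and the others by 1.31 and 1.16, and the T1 levels lay above the T0 levels. The fold change of 1.97 (1.17 to 3.32) did not pass the threshold (limma adjusted p = 0.0913), and it did without horse 41 (adjusted p = 0.042) and with normexp (0.0448). Validation T0 horses ranged from -1.41 to 0.75 (median -0.83) and T1 horses from -0.87 to 1.04 (median 0.72). The highest T0 level was that of horse 47, and the lowest T1 level that of horse 62, the horse with the highest HMOX1 level. The other 12 T1 horses were above the 6 T0 horses that remain without horse 47. SLC40A1 was 2.43-fold higher at T1 (1.67 to 3.54, limma adjusted p = 0.000552). Its log2 difference was 1.28, and 1.52 without horse 47. It was higher at T1 within all 5 scan days and 2 of 3 slides.

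FTH1, the ferritin heavy chain, has 2 probes that gave different sizes of change. On the brightest probe the levels at rest were 8.88, 8.27 and 8.93 in horses 2, 32 and 41, and after the ride 9.16, 9.21 and 9.21. The ratio of T1 to T0 was 1.42 (0.850 to 2.36, limma adjusted p = 0.331). The log2 difference of 0.50 was 0.33 after quantile normalisation, 0.18 with normexp, 0.17 from the deposited values and 0.29 without horse 32. On the validation arrays this probe ran from 8.39 to 8.97 at T0 (median 8.81) and from 6.56 to 9.64 at T1 (median 9.16). The lowest T1 level was the saturated spot of horse 34, which can only be read as a lower bound, and 9 of 13 T1 horses were above every T0 horse. The ratio was 1.17 (0.778 to 1.77, limma adjusted p = 0.545). The log2 difference of 0.23 was 0.04 after quantile normalisation, 0.05 with normexp and 0.14 from the deposited values. Without horse 34 it was 0.43 and passed the threshold (adjusted p = 0.0144). Without horse 34 it was higher at T1 within all 5 scan days, by 0.12 to 1.25, and within all 3 slides. The second probe, saturated on the same array, went from 6.75 ± 0.35 (SD, n = 7) to 7.52 ± 0.37 (n = 13), a log2 difference of 0.76 (SE 0.17, adjusted p = 0.00128). This T1 mean and difference include the saturated spot of horse 34, a lower bound, and no value without it was computed. In the experimental set the second probe went from 6.81 ± 0.33 (n = 3) to 7.76 ± 0.05 (n = 3), a log2 difference of 0.95 (adjusted p = 0.0924). The array lists several transcripts for these probes, so near copies of the gene may add to both.

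FTL, the ferritin light chain, was at 7.78, 7.53 and 7.34 in horses 2, 32 and 41 at T0 and at 8.53, 8.61 and 7.96 at T1. All 3 were higher at T1, by 0.62 to 1.08, and the fold change of 1.76 (1.08 to 2.89) did not pass the threshold (limma adjusted p = 0.123). Validation horses ranged from 6.66 to 8.08 at T0 (median 7.35) and from 6.55 to 8.65 at T1 (median 8.16). Here too horse 47 was the highest at T0 and the saturated spot of horse 34 the lowest at T1, and the remaining T1 horses, 12 of 13, were above the 6 other T0 horses. FTL was 1.58-fold higher at T1 (1.14 to 2.20, limma adjusted p = 0.0212). The log2 difference was 0.66, 0.79 without horse 34 and 0.90 without both horses. Within scan days FTL was higher at T1 in 5 of 5 and within slides in 2 of 3. A second gene name described as ferritin light chain gave 0.94 (SE 0.38, adjusted p = 0.0476) in the validation set and 1.06 (SE 0.34, adjusted p = 0.0792) in the experimental set.

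SLC11A1, a transporter that moves iron out of the phagosomes of neutrophils and macrophages, was at 5.65, 5.67 and 6.17 in horses 2, 32 and 41 at rest. After the ride the levels were 6.30, 6.61 and 6.35. Horse 41 was higher by 0.18 and the others by 0.66 and 0.94, and the fold change of 1.51 (0.903 to 2.51) did not pass the threshold (limma adjusted p = 0.259). Its log2 difference of 0.59 was 0.24 with normexp, 0.28 after quantile normalisation and 0.28 from the deposited values. In the validation set the ranges were 5.36 to 6.38 at T0 (median 5.94) and 5.95 to 7.38 at T1 (median 6.60), and 8 of 13 T1 horses were above every T0 horse. SLC11A1 was 1.47-fold higher at T1 (1.13 to 1.91, limma adjusted p = 0.0171), a call that quantile normalisation of the arrays lost (adjusted p = 0.0681). The log2 difference of 0.56 was 0.34 in that setting and 0.36 with normexp. It was higher at T1 within 4 of 5 scan days, with differences from -0.12 to 2.02, and within all 3 slides.

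TFRC, the transferrin receptor that brings iron into dividing and haemoglobin-making cells, was not tested. Its probe was not well above background on any experimental or validation T0 array. At T1 it passed on 1 of 13 validation arrays, that of horse 4, where the level was -4.12. All other arrays lay between -8.68 and -6.58, and no fold change is given.

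The change in the validation set was set against that in the experimental set in a fit of all 26 arrays. For none of the 9 genes did the difference between the sets pass the threshold (limma), nor for any of 17889 gene names (0% called), of which 99 (0.553%) had an unadjusted p under 0.05. The smallest unadjusted p of the 9 was 0.518, for BLVRA. The log2 difference between the sets was -0.10 for CD163 (95% interval -1.98 to 1.77), 0.47 for HP (-3.40 to 4.33) and 0.09 for HMOX1 (-1.26 to 1.44). The intervals are wide, and differences within them were not detectable with these arrays.

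Other genes of the same pathways were read from fixed lists. Of 9 genes of haem capture, transport and their regulation, 7 were tested, and NFE2L2 rose in both sets while the other 6 did not pass the threshold in either. This is 14.3% of the 7 in each set, against 10.1% of all gene names tested in the experimental and 44.2% in the validation set. NFE2L2 encodes NRF2, a transcription factor that induces HMOX1 and the ferritin genes under oxidative stress. Its log2 fold change was 1.55 (SE 0.31, limma adjusted p = 0.0204) in the experimental and 1.38 (SE 0.17, adjusted p = 5.36e-06) in the validation set. HPX, haemopexin, which binds free haem in plasma, gave -0.39 and -0.40 (adjusted p = 0.61 and 0.462). HMOX2, the constitutive haem oxygenase, gave -0.58 and -0.66 (adjusted p = 0.294 and 0.0968). Of the 7 genes 3 had a positive log2 fold change in each set, NFE2L2, LRP1 (0.68 and 0.37) and SLC48A1 (0.44 and 0.20). The median log2 fold change of the 7 genes was -0.14 in each set.

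Of 25 genes of iron uptake, storage, release and sensing, 19 were tested. In the experimental set 2 of them rose, LTF and LCN2, and none fell, which is 10.5% against 10.1% of all gene names tested. In the validation set 6 rose and 3 fell, 47.4% against 44.2%. These shares are near those over all gene names. LTF, lactoferrin, which binds iron in neutrophil granules, rose by 3.57 (adjusted p = 0.00659) and 3.32 (adjusted p = 2.9e-05) on the log2 scale in the experimental and validation sets. LCN2, lipocalin 2, which captures bacterial iron carriers, rose by 2.36 (adjusted p = 0.0131) and 2.12 (adjusted p = 0.00178). Both are also neutrophil granule genes and were counted in that marker list as well.

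A further 7 of the 19 iron genes passed in the validation set and not in the experimental set, and 10 passed in neither. The ferric reductases CYBRD1 and STEAP3 were higher by 1.25 (adjusted p = 0.00375) and 0.96 (adjusted p = 0.0106). SLC25A28, which carries iron into mitochondria, was higher by 0.74 (adjusted p = 0.000361), and the iron chaperone PCBP1 by 0.28 (adjusted p = 0.0349). ACO1, the iron-sensing cytosolic aconitase, fell by 0.67 (adjusted p = 0.0345). HAMP encodes hepcidin, the peptide that removes ferroportin from the cell surface, and fell by 0.66 (adjusted p = 0.0108). SLC11A2, a transporter of ferrous iron, fell by 0.47 (adjusted p = 0.0148). In the experimental set ACO1, HAMP and SLC11A2 gave -0.59, -0.42 and -0.66, with adjusted p of 0.219 to 0.469. The median log2 fold change of the 19 genes was 0.21 in the experimental and 0.28 in the validation set.

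**Figure D4:**
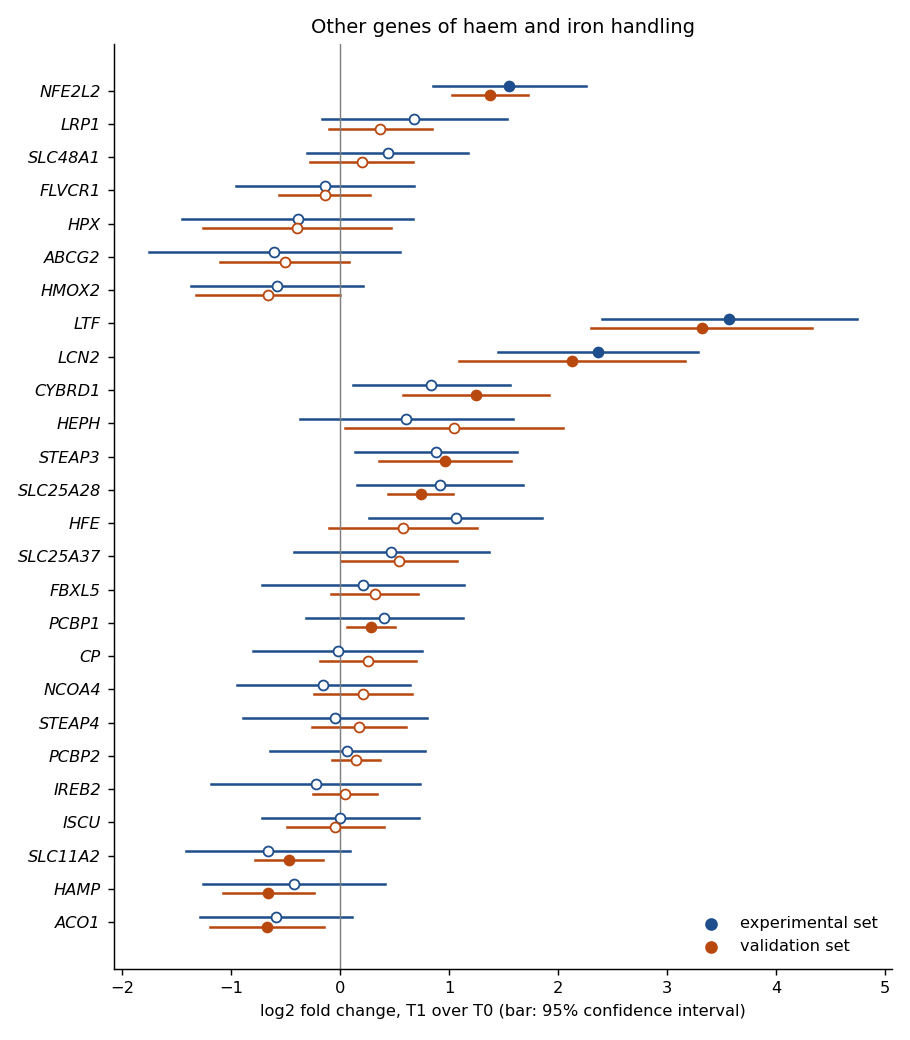
Log2 fold change of T1 over T0 in the experimental (blue) and validation set (orange) for the 7 haem genes (NFE2L2 to HMOX2) and 19 iron genes (LTF to ACO1) tested; bars are 95% confidence intervals, and filled points have an adjusted p under 0.05. NFE2L2, LTF and LCN2 are filled in both sets.

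Markers of the blood cell types changed over the same ride. The counts below stand against 6.16% of all gene names called higher and 3.95% lower in the experimental set, and 20.3% higher and 23.9% lower in the validation set. Of 6 neutrophil markers 4 rose in the experimental and 5 in the validation set. Their mean level lay between 2.18 and 3.57 at T0 and between 4.31 and 4.85 at T1 in the experimental set, and between 2.22 and 4.34 at T0 and 3.95 and 4.99 at T1 in the validation set. Of 6 immature granule markers 5 rose in each set. Their mean lay between -1.79 and -0.20 at T0 and between 1.35 and 2.68 at T1 in the experimental set, and between -2.11 and 0.84 at T0 and 0.77 and 3.26 at T1 in the validation set. The T cell markers moved the other way, as 5 of 7 fell in the experimental set and all 7 in the validation set. Their mean lay between 0.87 and 1.57 at T0 and between -0.36 and -0.25 at T1 in the former, and between 0.08 and 1.45 at T0 and -1.12 and 0.33 at T1 in the latter. B cell markers fell as well, 3 of 5 in the experimental set and 5 of 5 in the validation set. Of 4 NK cell markers 2 fell in each set and NCR1 rose in the validation set.

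Monocytes, the blood cells that carry CD163, had a mixed marker list. CD14 and VCAN, 2 of 7, rose in both sets, CX3CR1 fell in both, and MS4A7 fell in the validation set. The mean of the list lay between 2.24 and 2.50 at T0 and 2.27 and 2.89 at T1 in the experimental set, and between 2.09 and 2.52 at T0 and 2.34 and 3.03 at T1 in the validation set. CSF1R, the receptor that defines the lineage, gave 0.03 and 0.07 (adjusted p = 0.958 and 0.781). No platelet marker of 4 tested passed in either set by limma, while GP9 and TUBB1 had an unadjusted p of 0.0339 and 0.0308 in the experimental set and none had one under 0.05 in the validation set. Of the erythroid markers, 4 of 6 with a probe were tested and HBB, the haemoglobin beta chain, rose in both sets, by 2.52 (adjusted p = 0.0433) and 2.25 (adjusted p = 0.0115), while SLC4A1 and EPB42 were never above background. The part of these marker shifts in the results of the 10 genes was not tested.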

How the data were processed

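Whole-blood RNA was labelled with Cy3 and hybridised to a custom equine Agilent array of 45220 spots, 43384 probes and 24415 gene names. The deposited files hold the signal intensity of every spot as the authors' software wrote it (Agilent Feature Extraction 10.7.3.1), with flags for background, saturation and outliers, counted here as other values. A table of log2 values, whose normalisation is not given in the sources used here, was also deposited by the authors and served as an alternative. Its lowest Spearman rho with the scanner signals was 0.998.

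Control spots and 386 outlier spots were left out, spots of a probe were averaged on the log2 scale, and the 75th percentile of each array (8.74 to 9.76) was subtracted. The brightest probe stood for a gene name. Gene names were tested when well above background on at least 3 of 6 experimental, 7 of 20 validation or 7 of all 26 arrays. Limma 3.58.1 (lmFit, eBayes) compared T1 with T0, with the horse as a block in the experimental set because each of its animals gave both arrays, and with the horse as a random block when the sets were compared. The correlation of the 2 arrays of a horse about their group means was -0.00866, 0.213 and 0.191 for horses 2, 32 and 41. Adjustment was by Benjamini-Hochberg over all gene names tested, at 0.05. Correlations used 100000 permutations, two-sided.

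The arrays lay on 18 slides scanned on 8 days. Between 60.4% and 75.4% of spots were well above background. Precision is set by how many arrays each group has. Symbols came from gene IDs and accessions in a RefSeq table of another build, used for names only, and from the study's annotation. The text names all 10 genes, every listed haem or iron gene that passed in either set, and the 5 gene names most like CD163 among those with a symbol. It also names HPX, HMOX2, LRP1 and SLC48A1, which passed in neither set. The 10 genes and all lists were chosen with earlier results of these data known. For SLC39A14, BACH1, HFE2 and FTMT no probe was used. Of the listed genes, 2 are not reported here. The fits were tested on simulated data.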

Additional observations from a re-analysis of the deposited data

Results flagged for a closer look

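SLC40A1 in the validation horses at T0 was marked because the level of horse 47, 0.75, lay far from the other 6 T0 horses, which ranged from -1.41 to -0.53. Its gap to the nearest horse was 0.59 of the whole range. Of the 10 groups of validation T0 levels examined in this way, 1 was marked, and chance marks about 1 in 20.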

How the results depend on the processing

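Of 101 values of single genes recomputed under the alternatives in the experimental set, 91 kept their direction and their side of the threshold, as did 118 of 127 in the validation set. CD163 and HP did so under every alternative that gave a value, and HP was not tested in the validation set when every array had to be above background. Changing only the filter, dropping the horse block or putting all 26 arrays in 1 fit left each log2 fold change as it was. Its direction could not turn there, nor when probes were averaged for a gene with 1 probe. A gene not called in the main fit also counted as kept when it was again not called. In the experimental set 4 of the 9 genes were called, and 2 of them with no filter on dim probes and 2 to 5 when 1 horse was left out, SLC40A1 being among the 5 called without horse 41. Without the replicate block 3 were called and HMOX1 had an adjusted p of 0.055, and BLVRA was lost with no filter (0.161). With normexp, SLC40A1 passed in the experimental set (0.0448). In the validation set 7 or 8 genes were called when horse 13, horse 34, horse 47 or both of the latter were left out, and 6 after quantile normalisation. BLVRB turned to -0.19 with normexp, -0.19 with quantile normalisation, -0.16 from the deposited values, -0.039 with scan day as a term and -0.0013 without horses 34 and 47 in the validation set, and ran from -0.45 to 0.10 in the experimental set when 1 horse was left out, 0.10 being without horse 2. The count over all gene names in the experimental set, 1768, was 46 with no filter, 2816 with every array above background, 2931 with all 26 arrays in 1 fit, 1785 without the replicate block, and 239 to 3169 when 1 horse was left out. In the validation set it ranged from 6968 to 8295 when horse 13, 34 or 47 was left out. The second probes of CD163 and FTH1, and leaving out horse 13 or both horses 34 and 47, were tried after seeing the data. The cause of these differences was not tested, and with 3 experimental horses each call rests on few arrays.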
